A study of Mus musculus with 6 samples.

Results

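The microRNA processing and silencing machinery was followed through 10 genes: Drosha, Dgcr8, Ddx5, Xpo5, Dicer1, Tarbp2, Ago1, Ago2, Ago3 and Tnrc6a. Members were chosen by name, as the gene probes whose only symbol in the platform annotation is one of these. All 10 genes were found, on 13 of the 34967 gene probes of the array, with a pair of probes each for Dgcr8, Xpo5 and Ago2. In all, the annotation names 18069 genes by single-symbol probes.

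RNA came from neurospheres, floating clusters of neural precursor cells, on 6 single-colour CodeLink arrays. The anti-miR-335 group, 3 arrays, was transfected with a 2'-O-methyl oligonucleotide antisense to miR-335, and the control group, 3 arrays, with a nonsense 2'-O-methyl oligonucleotide named for EGFP. Both groups were grown from dorsal telencephalon of C57BL/6 mouse fetuses at embryonic day 12.5, in serum-free medium with bFGF and EGF at 20 ng/ml each and LIF at 0.15 ng/ml, and no genotype other than the strain is given. The oligonucleotide is transient and blocks the microRNA by pairing, although the labels call the treated group a knockout. The labels give its duration as 24 without a unit, and do not say whether fetuses were pooled. What was repeated between the 3 replicates of a group, described only as independent, is not given. All p-values therefore reflect the spread among these 6 samples, which may be technical.

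MicroRNAs are made in steps. In the nucleus, the Microprocessor, made of the RNase III enzyme Drosha and its RNA-binding partner Dgcr8, cuts a hairpin out of a longer transcript, with helicases such as Ddx5 as accessory factors. Exportin 5 (Xpo5) carries the hairpin to the cytoplasm, where Dicer1 with its partner Tarbp2 cuts it to a short duplex. One strand is loaded into an Argonaute protein, which finds mRNAs by pairing with the seed at the strand's 5′ end and, through GW182 proteins such as Tnrc6a, brings in the enzymes that shorten the poly(A) tail, remove the cap and degrade the mRNA. In the developing cortex, loss of Dicer1 is known to impair the survival of neurons and the expansion of progenitors.

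The microRNA blocked in the treated cultures is itself a product of this machinery, so its mature strands are shown, from RefSeq with build GRCm38.p6. Capitals mark the seed, bases 2 to 8 from the 5′ end. Both strands come from the plus strand of chromosome 6, the 5p strand from chr6:30741314-30741336 and the 3p strand from chr6:30741354-30741375. The labels do not say which strand the antisense oligonucleotide pairs with.
mmu-miR-335-5p: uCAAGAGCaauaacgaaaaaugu
mmu-miR-335-3p: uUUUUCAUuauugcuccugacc
The 5p seed CAAGAGC and the 3p seed UUUUCAU differ, so the strands belong to different seed families. Levels of miR-335 and of other microRNAs were not analysed here, and sites for these seeds in the members' mRNAs were not looked for.

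Values are linear intensities with the local background subtracted, in units of each array's median, as the authors deposited them. The limit for calling a probe above background was set on each array from its negative control spots (their median plus 3 scaled MADs) and lay between 0.492 and 0.692. Between 59.5% and 66.8% of the gene probes passed it. Of 11 measured markers of dorsal telencephalic precursors, 10 were above background on all 6 arrays, Sox2, Pax6, Nes and Vim among them, while Emx1 was above background on none. Of 6 markers each, 4 neuronal, 6 astrocyte, 6 oligodendrocyte lineage and 5 ventral telencephalic ones were above background on at least 3 arrays. The cultures thus held RNA of genes listed for other neural fates, some of them near the limit, such as Mbp and Slc1a2. Whether precursors or other cells made this RNA was not tested. By the same rule 3 of 6 endothelial markers passed (Kdr, Tek and Cldn5), as did 1 of 4 measured microglial (Cx3cr1), 1 of 6 mesenchymal (Pdgfrb) and 0 of 3 measured erythroid markers, while Ptprc, Itgam, Pecam1, Cdh5, Flt1, Col1a1 and Col1a2 were above background on no array. The summed precursor markers lay between 267 and 301 in anti-miR-335 neurospheres and between 251 and 254 in control neurospheres, and the summed neuronal markers between 10.03 and 13.3 against 7.72 and 11.7 in control neurospheres. Within the precursor list Fabp7 and Vim are the largest terms, and Nes, Emx2 and Msi1 averaged lower in anti-miR-335 neurospheres. The astrocyte sums lay between 122 and 149 in anti-miR-335 neurospheres and between 119 and 134 in control neurospheres, and the oligodendrocyte lineage sums between 25.8 and 53.0 against 18.4 and 42.6 in the controls. Among all probes above background on at least 3 arrays, 9.49% were apart between groups and higher in anti-miR-335 neurospheres. In the oligodendrocyte, astrocyte and neuronal lists, Cspg4, Mbp, Olig2, S100b and Neurod1 averaged lower in anti-miR-335 neurospheres, with groups that overlapped. Some single markers, chosen after their values were seen, did not overlap between groups and were higher, Fabp7, Hes5, Sox10 and Dcx among them. Pdgfra was at 13.2, 17.6 and 17.1 in anti-miR-335 neurospheres, against 9.64, 7.01 and 7.21 in control neurospheres. Aqp4 was at 15.01, 17.9 and 17.9 in anti-miR-335 neurospheres, against 11.5, 10.04 and 9.85 in control neurospheres, and Gja1 at 15.3, 15.8 and 8.49 against 6.27, 7.17 and 4.37 in control neurospheres. Olig1, of the oligodendrocyte lineage, divided the arrays across the groups, at 18.6, 26.8 and 1.61 in anti-miR-335 replicates 1, 2 and 3, against 1.93, 24.3 and 25.9 in control replicates 1, 2 and 3. Their part in the values of the machinery was not tested, and in such bulk RNA a change in the share of a cell type and a change in RNA per cell cannot be told apart.

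None of the 10 genes passed the test between anti-miR-335 and control neurospheres. Of the 13 probes, 11 had a higher mean log2 value in anti-miR-335 neurospheres, with a median log2 difference of 0.19 (anti-miR-335 minus control), where 51.9% of the 34847 probes tested were positive and their median was 0.01. The members' median was 0.35 without control replicate 1 and 0.066 without both replicate 3 arrays. Restricted to probes above background on at least 3 arrays, 10 of 11 were positive with a median of 0.19, against 55.7% and a median of 0.03 over 21956 such probes. By limma, 0 of the 13 passed an adjusted p of 0.05, as did 0% of all probes, and 2 had an unadjusted p under 0.05, both higher, where 4.91% of all probes were called higher and 4.17% lower by that rule. The smallest adjusted p among the members, by limma, was 0.529, for Ddx5. Group values did not overlap for Ddx5 and Dicer1, both higher in anti-miR-335 neurospheres, which is 2 of 13 probes beside 7.59% of all probes. Among probes above background on at least 3 arrays the background shares are 6.47% for an unadjusted p under 0.05 and higher, 9.49% for groups apart and higher, and 8.11% for groups apart and lower, beside 2, 2 and 0 of the 11 member probes. These shares are for description, since members and lists were chosen with earlier results known.

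**Figure D1:**
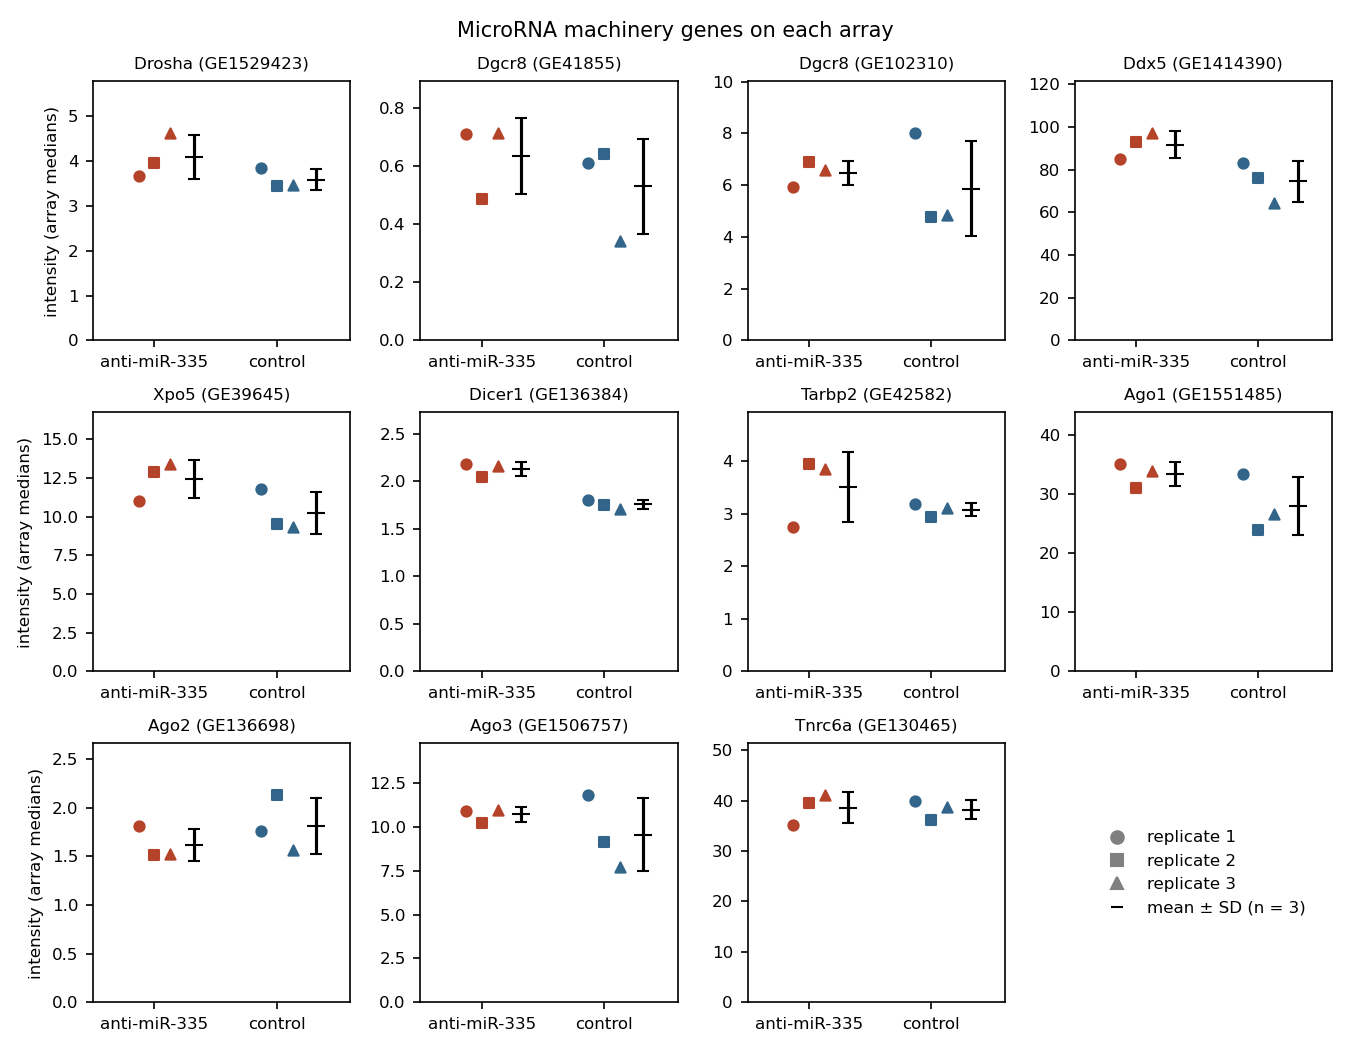
Intensity in array medians (vertical axes, from 0) of the 11 member probes above background on at least 3 arrays, with the anti-miR-335 arrays left and the control arrays right; symbols are replicates and bars are mean ± SD (n = 3). Only for Ddx5 and Dicer1 do all 3 anti-miR-335 arrays lie above all 3 control arrays.

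Among the nuclear factors, Ddx5, a DEAD-box RNA helicase that also acts in splicing and transcription, had intensities of 84.8, 93.1 and 97.0 in anti-miR-335 replicates 1, 2 and 3, against 83.1, 76.3 and 64.2 in control replicates 1, 2 and 3. The lowest anti-miR-335 array lay just above the highest control array, so the groups were apart by a small margin. Ddx5 averaged 91.6 ± 6.24 in anti-miR-335 neurospheres and 74.5 ± 9.55 in the controls (SD, n = 3 each), a log2 difference of 0.30 ± 0.13 (SE), which ran from 0.16 without both replicate 3 arrays to 0.44 without both replicate 1 arrays. Over all probes tested, 67.7% had a smaller difference in size than this one.

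Drosha, the nuclear RNase III, had intensities of 3.66, 3.96 and 4.62 in anti-miR-335 neurospheres, against 3.85, 3.44 and 3.46 in control neurospheres. Here the groups overlapped, control replicate 1 lying above anti-miR-335 replicate 1. Drosha's log2 difference was 0.18 ± 0.13 (SE), with a 95% interval from -0.10 to 0.47 and a limma adjusted p of 0.704. It was 0.090 without anti-miR-335 replicate 3, 0.066 without both replicate 3 arrays and 0.31 without both replicate 1 arrays.

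Dgcr8, which recognises the hairpin and whose own mRNA is cut by Drosha, had a probe well above background (GE102310) at 5.94, 6.88 and 6.59 in anti-miR-335 neurospheres, against 8.01, 4.75 and 4.85 in control neurospheres. Control replicate 1 was the highest of all 6 arrays and the other control arrays were the lowest. The log2 difference was 0.18 ± 0.19 (SE) over 6 arrays, with a limma adjusted p of 0.809, and 0.43 ± 0.10 without control replicate 1, with a limma adjusted p of 0.04997, just past the threshold. The same difference was 0.052 without control replicate 2, 0.066 without control replicate 3 and 0.0061 without both replicate 2 arrays. The second Dgcr8 probe (GE41855) lay near the background limit, at 0.709, 0.485 and 0.712 in anti-miR-335 neurospheres, against 0.609, 0.639 and 0.342 in control neurospheres, and exceeded it on 2 anti-miR-335 arrays and 1 control array.

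Xpo5, the exporter of the hairpins, had intensities of 11.04, 12.9 and 13.4 in anti-miR-335 neurospheres, against 11.8, 9.56 and 9.36 in control neurospheres. Control replicate 1 again lay above anti-miR-335 replicate 1, so the groups overlapped. The log2 difference was 0.28 ± 0.12 (SE; limma adjusted p of 0.543), and 0.39 ± 0.10 without control replicate 1 (limma adjusted p of 0.0693). Over all fits without an array or a replicate pair (same-numbered arrays only) it ran from 0.17 (without both replicate 3 arrays) to 0.47 (without both replicate 1 arrays). This probe (GE39645) was designed on a cDNA that the scanner annotation describes as having an apparent retained intron. The other Xpo5 probe (GE41783), on the gene's reference mRNA, was above background on no array, with values from 0.104 to 0.364 in anti-miR-335 neurospheres and from 0.0831 to 0.284 in the controls. The array thus gave a level for Xpo5 only on the probe to the intron-retaining cDNA.

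In the cytoplasm, Dicer1, the RNase III that makes the duplex, had intensities of 2.18, 2.04 and 2.17 in anti-miR-335 neurospheres, against 1.81, 1.75 and 1.71 in control neurospheres. The groups did not overlap and each was tight, 2.13 ± 0.0748 against 1.76 ± 0.0467 in the controls (SD, n = 3 each). The log2 difference was 0.28 ± 0.14 (SE), with a limma adjusted p of 0.593; the moderated SE draws on probes of like intensity and is wider than the spread of these 6 values. Leaving out any single array or same-numbered replicate pair gave differences between 0.25 and 0.31.

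Tarbp2, the double-stranded RNA-binding partner of Dicer1, had intensities of 2.74, 3.94 and 3.85 in anti-miR-335 neurospheres, against 3.17, 2.93 and 3.11 in control neurospheres. Anti-miR-335 replicate 1 was the lowest of all 6 arrays and the other anti-miR-335 arrays were the highest. For Tarbp2 the log2 difference was 0.17 ± 0.16 (SE; limma adjusted p of 0.777). It was 0.34 without anti-miR-335 replicate 1, 0.080 without anti-miR-335 replicate 2 and 0.097 without anti-miR-335 replicate 3, and 0.047 without both replicate 2 arrays.

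The Argonautes hold the guide strand. Ago1, which lacks efficient slicing activity, had intensities of 35.04, 31.1 and 33.9 in anti-miR-335 neurospheres, against 33.4, 23.8 and 26.7 in control neurospheres. Ago3 had 10.9, 10.2 and 10.98 in anti-miR-335 neurospheres, against 11.8, 9.13 and 7.72 in control neurospheres. In both genes control replicate 1 stood among or above the anti-miR-335 arrays while the other control arrays lay below all of them. The log2 differences were 0.27 ± 0.13 for Ago1 and 0.19 ± 0.15 for Ago3 (SE; limma adjusted p of 0.588 and 0.738), and 0.40 ± 0.10 and 0.35 ± 0.10 without control replicate 1 (limma adjusted p of 0.0568 and 0.0870). Leaving out other arrays moved them the other way: Ago1 was at 0.16 without control replicate 2, and Ago3 at 0.043 without control replicate 3 and 0.024 without both replicate 3 arrays.

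Ago2, the mouse Argonaute that slices fully paired targets, had intensities of 1.81, 1.52 and 1.52 in anti-miR-335 neurospheres, against 1.76, 2.13 and 1.56 in control neurospheres on its probe above background (GE136698). The groups overlapped, with control replicate 2 the highest array. The log2 difference was -0.16 ± 0.17 (SE), with a 95% interval from -0.55 to 0.22 and a limma adjusted p of 0.817. It was -0.043 without control replicate 2 and 0.0005 without both replicate 2 arrays. The other Ago2 probe (GE1456071) exceeded background on control replicate 3 alone and has no usable fold.

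Because Ago2 lay on the other side of 0 from Ago1 and Ago3, the log2 differences were set against each other within arrays, a comparison chosen after the values were seen. The difference for Ago1 exceeded that for Ago2 by 0.43 ± 0.24 (SE), that for Ago3 exceeded that for Ago2 by 0.35 ± 0.20, and that for Ago1 exceeded that for Ago3 by 0.08 ± 0.12. In exact two-sided permutation tests the p-values were 0.1, 0.2 and 0.5, with 0.3, 0.3 and 0.5 after Benjamini-Hochberg adjustment over the 3 pairs. The smallest p that 3 arrays against 3 can give is 0.1, so no pair could reach 0.05.

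Tnrc6a, the GW182 scaffold that links Argonaute to deadenylases, had intensities of 35.1, 39.6 and 41.0 in anti-miR-335 neurospheres, against 39.9, 36.1 and 38.7 in control neurospheres. The groups were interleaved. For Tnrc6a the log2 difference was 0.01 ± 0.11 (SE), with a 95% interval from -0.22 to 0.25, the narrowest among the 13 probes.

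**Figure D2:**
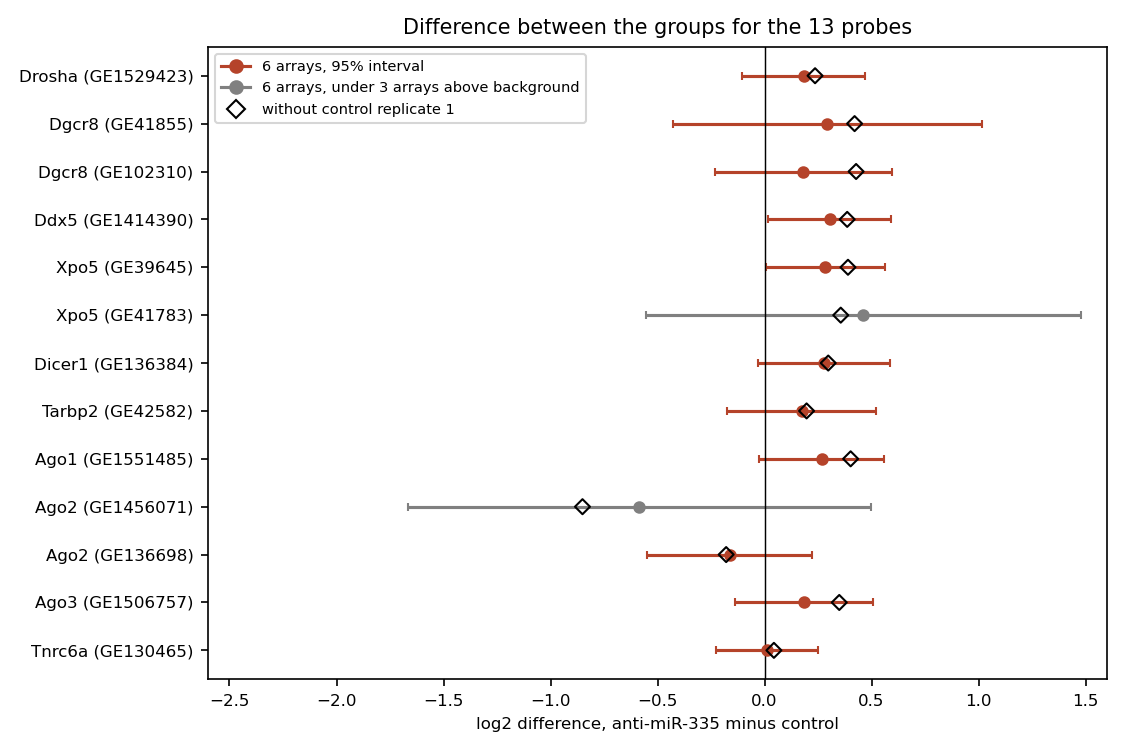
Log2 difference, anti-miR-335 minus control (horizontal axis), of each of the 13 probes (vertical axis); circles with bars are limma estimates over 6 arrays with 95% intervals, grey where fewer than 3 arrays were above background, and diamonds leave out control replicate 1. The intervals of Ddx5 and of the brighter Xpo5 probe lie above 0 before adjustment over all probes, and the other 11 include 0.

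The control arrays did not run alike for these genes. In control replicate 1, 9 of the 11 probes above background were higher than in both other control arrays, as were 51.2% of all such probes. Every anti-miR-335 array lay above control replicates 2 and 3 for 7 of the 11, beside 28.3% of all probes above background. These were Drosha, the brighter Dgcr8 probe, Ddx5, the brighter Xpo5 probe, Dicer1, Ago1 and Ago3. The pattern was picked after the values were seen, and setting aside the control that was highest for 9 of the 11 favours it. The same count with other arrays set aside was not made. The median deviation of the 11 probes from their own 6-array mean was 0.04, 0.06 and 0.16 on anti-miR-335 replicates 1, 2 and 3 and 0.06, -0.14 and -0.19 on control replicates 1, 2 and 3 (log2). Over all probes above background these medians were -0.02, 0.06 and 0.03 on the anti-miR-335 arrays and 0.06, -0.05 and -0.03 on the control arrays. Control replicate 1 also had the lowest median of the positive control spots, 3.49 against 3.89 to 5.19 on the other arrays, and it shared with anti-miR-335 replicate 3, the array where the members' median was highest, the low Olig1 value. Whether either bears on the members was not tested. Without control replicate 1, 2.27% of all probes were called higher by limma at an adjusted p of 0.05 and 0.906% lower, and 1 member probe was called, the brighter of Dgcr8. Without both replicate 1 arrays, 4.57% of all probes were called in either direction, and 2 member probes, those of Dgcr8 and Xpo5 at 0.49 and 0.47 (log2, anti-miR-335 minus control).

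**Figure D3:**
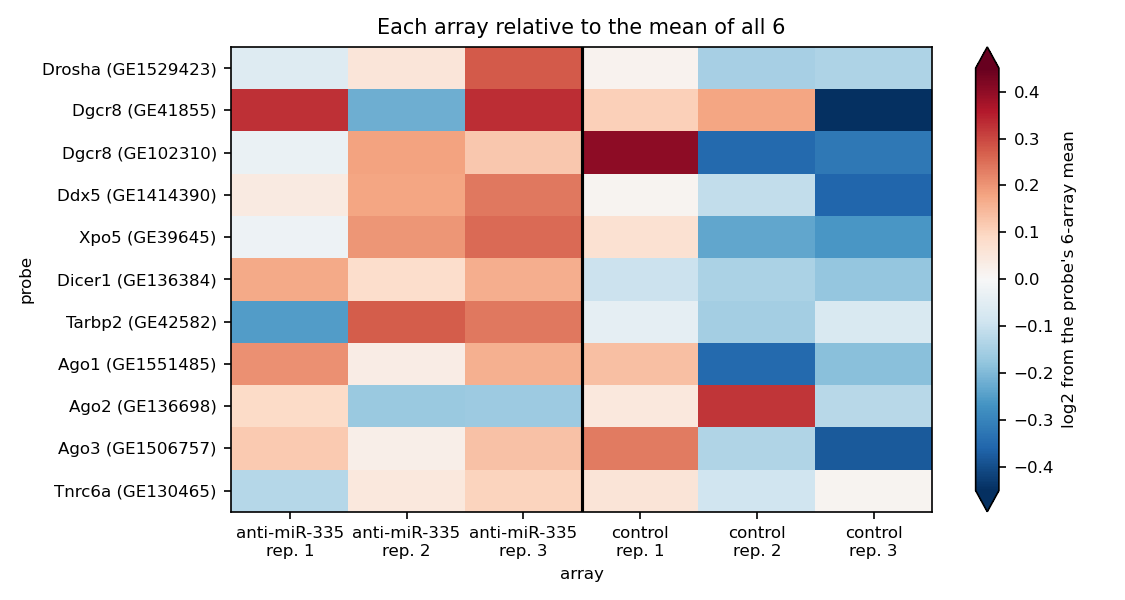
Heat map of log2 intensity relative to each probe's mean over the 6 arrays (colour, cut at the ends of the scale), for the 11 member probes above background on at least 3 arrays (rows) and the 6 arrays (columns, anti-miR-335 left of control). Control replicates 2 and 3 are below the mean for most probes, while control replicate 1 is above it for 9 of 11.

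Genes that work beside the members were read from 6 lists with 74 entries, of which 69 were measured on 84 probes. By limma 0 of these probes passed, 5 had an unadjusted p under 0.05, all higher, where 4.91% of all probes were called higher, and 53 of 84 were positive, where 51.9% of all probes were, with a median log2 difference of 0.06. Groups did not overlap for 6 higher and 4 lower probes, beside 7.59% and 7.37% of all probes. Of these partner probes, 80 were above background on at least 3 arrays. There 52 were positive with a median of 0.06, against 55.7% and 0.03 over all such probes. By limma 5 of the 80 had an unadjusted p under 0.05 and were higher, beside 6.47%. Groups were apart for 6 higher and 3 lower of the 80, beside 9.49% and 8.11%. Among the nuclear partners, 6 of 8 probes were positive with a median of 0.08. Srrt, the Ars2 protein that couples the cap-binding complex to the Microprocessor, lay at 17.6, 21.0 and 23.5 in anti-miR-335 neurospheres, against 16.1, 15.6 and 17.3 in control neurospheres (log2 difference 0.34 ± 0.12 SE). Smad1, a BMP effector that binds the Microprocessor, differed by 0.21 ± 0.14 (SE). Among export and dicing partners, 5 of 6 were positive with a median of 0.06, and Parn, a poly(A) ribonuclease, lay at 9.21, 11.6 and 10.5 in anti-miR-335 neurospheres, against 8.08, 8.98 and 8.98 in control neurospheres. Tsn, whose protein translin helps to clear the passenger strand, differed by 0.14 ± 0.11 (log2, SE).

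Among Argonaute and GW182 partners, 11 of 18 probes were positive with a median of 0.07. The chaperone gene Hsp90aa1, needed for loading of Argonaute, lay at 20.1, 21.9 and 26.1 in anti-miR-335 neurospheres, against 21.1, 17.0 and 16.3 in control neurospheres, and its log2 difference of 0.32 ± 0.13 (SE) became 0.52 without both replicate 1 arrays (limma adjusted p of 0.0475), 0.22 without anti-miR-335 replicate 3 and 0.14 without both replicate 3 arrays. Trim32, a ubiquitin ligase that binds Ago1 in neural progenitors, differed by 0.22 ± 0.13 (SE). Of paralogs of the members on the partner lists, singled out after their values were seen, Ago4 differed by 0.26 ± 0.17 (log2, SE), Tnrc6c by 0.08 ± 0.11, and the 3 probes of Tnrc6b by -0.05 ± 0.12, 0.16 ± 0.26 and -0.15 ± 0.11. Ddx17, a paralog of Ddx5, differed by -0.06 ± 0.13, and Prkra, a paralog of Tarbp2, by 0.04 ± 0.12 and 0.03 ± 0.10 on its probes.

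Downstream of Argonaute, deadenylation genes had 13 of 21 probes positive and a median of 0.10. Cnot2, a subunit of the CCR4-NOT deadenylase, had the smallest p of the partners. It lay at 3.002, 2.77 and 3.06 in anti-miR-335 neurospheres, against 2.10, 2.24 and 2.20 in control neurospheres, and no array crossed over. This log2 difference was 0.43 ± 0.13 (SE; limma adjusted p of 0.440). Btg1, which binds the Caf1 deadenylase subunit, lay the other way, at 22.7, 24.6 and 17.4 in anti-miR-335 neurospheres, against 26.6, 25.0 and 25.8 in control neurospheres (-0.27 ± 0.13). Decapping and decay genes had 10 of 17 probes positive and a median of 0.02, with the decapping enhancer Edc3 at 0.32 ± 0.15 and the decapping cofactor Dcp1b at 0.16 ± 0.10 (log2, SE). Without control replicate 1, Edc3 was at 0.48 (limma adjusted p of 0.0432), and it was at 0.21 without control replicate 3 and 0.19 without both replicate 3 arrays. In the list of let-7 precursor control and microRNA decay, 8 of 14 were positive with a median of 0.02. Tut4, a terminal uridylyltransferase, differed by 0.15 ± 0.15 and 0.17 ± 0.15 on its probes.

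**Figure D4:**
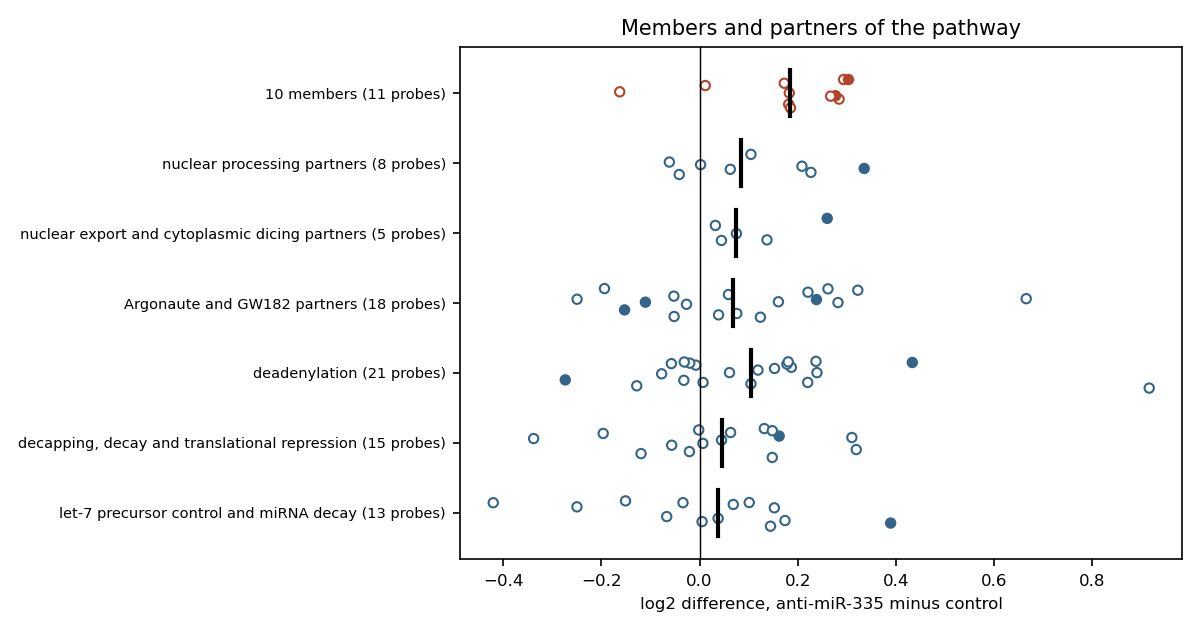
Log2 difference, anti-miR-335 minus control (horizontal axis), of probes above background on at least 3 arrays, for the 10 members (top row) and the 6 partner lists; each circle is a probe, filled where the values of the groups do not overlap, and vertical bars are medians. The members' median is 0.19 and the partner medians lie between 0.04 and 0.10.

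Genes whose values ran most like a member's were named by the distance between profiles over the 6 arrays, each centred and scaled to unit SD, among 12135 probes above background on all arrays. The profiles hold 6 values each and the names carry no test. Nearest to Ddx5 were Rdh11, Dip2a and Ndufs4 (root mean square distances of 0.068 to 0.091 SD). Nearest to Xpo5 were Entpd6, Fam220a and 1110018N20Rik (0.051 to 0.057 SD), and nearest to Dicer1 were Arxes2, Ssh2 and Wdr24 (0.086 to 0.11 SD).

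RefSeq promoter windows were at hand for 9 of the 10 genes, Ago2 being the exception. In the 250 bases before the annotated start, all 9 held more CpG dinucleotides than the median gene, from 9 in Tnrc6a to 39 in Dicer1 against a median of 6 over 27025 genes of all kinds. The GC box GGGCGG, searched on both strands, was found in 7 of 9 (Dgcr8, Ddx5, Xpo5, Dicer1, Tarbp2, Ago1 and Ago3) beside 35.4% of all genes. The CCAAT box, letters CCAAT on both strands, was found in 6 of 9 (Drosha, Dgcr8, Ddx5, Dicer1, Tarbp2 and Ago1) beside 37.5%. TATAAA on the gene's strand was found in Ddx5 alone, beside 8.94%. Genes with several starts, Ddx5 with 3 and Ago1 with 2, were searched in each window. The windows of the pair of genes with group values apart are shown, both on the minus strand of GRCm38.p6, with capitals for the motifs named: Ddx5 at its most downstream start, chr11:106788495-106788744, and Dicer1, chr12:104751953-104752202.
Ddx5: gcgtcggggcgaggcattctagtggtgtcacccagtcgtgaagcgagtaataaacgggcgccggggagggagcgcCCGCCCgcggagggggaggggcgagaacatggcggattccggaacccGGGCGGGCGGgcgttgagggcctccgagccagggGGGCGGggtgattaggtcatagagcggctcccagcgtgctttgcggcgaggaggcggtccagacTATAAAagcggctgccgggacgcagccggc
Dicer1: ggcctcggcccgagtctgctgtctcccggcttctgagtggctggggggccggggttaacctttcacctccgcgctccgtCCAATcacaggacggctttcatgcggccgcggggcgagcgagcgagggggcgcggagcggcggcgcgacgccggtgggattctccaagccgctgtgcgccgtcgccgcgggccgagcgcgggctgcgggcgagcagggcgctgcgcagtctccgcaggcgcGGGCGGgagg
These matches are letters in a window and no measure of binding.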

How the data were processed

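The labels describe biotin labelling of cRNA from 2 µg of total RNA and 18 h of hybridisation to CodeLink arrays. Deposited values are linear intensities on which the authors used global median normalization, per the labels. Subtraction of local background was read from the columns of the scanner output (CodeLink Expression Analysis 4.1.0.29054, per the file headers), used for replicate 1 of each group. There 36032 (anti-miR-335) and 35976 (control) values equalled the deposited ones within 0.0001. The platform annotation gave 21615 probes 1 symbol, 681 several and 12671 none; 21487 of the first kind were found in RefSeq's table, which changed 0 symbols.

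A floor was set at the 5th percentile of positive values (0.163) before taking log2. The test was two-sided limma 3.58.1 under R 4.3.3, by lmFit and then eBayes with a trend on intensity. Benjamini-Hochberg adjustment ran over the 34847 probes with at least 2 values in each group. The number of arrays, 3 per group, limits the precision. The statistics were tested on simulated data. The changes put in were larger than the differences of the member probes above background on at least 3 arrays. Recovery of differences as small as theirs was therefore not tested. The simulation drew independent noise for each probe with no differences between whole arrays, so it cannot speak to the part of control replicate 1. Members, partner lists and tests were chosen with earlier results of these data known. All members are named with every probe; of the partners, each list gives its 2 genes of smallest p among probes above background on at least 3 arrays. The 3 nearest profiles were taken for Ddx5, Xpo5 and Dicer1. Slide and scan could not be tested as batches, since scanner output was used for 1 array per group.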

Additional observations from a re-analysis of the deposited data

How the results depend on the processing

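Of the member probes' differences under settings that left out no array (quantile normalization, floors at the 1st and 20th percentile, dim probes left out, no trend, a robust trend, array weights, the replicate block), 101 kept direction and side of the threshold and 1 did not: Tnrc6a was -0.034 on quantile-normalized values. In most of these settings direction could not change. Leaving out dim probes, the trend settings and the replicate block alter only the SE and p, not the log2 difference. The floors moved only the dim Xpo5 and Ago2 probes. Quantile normalization and array weights alone changed the log2 differences of the other probes. With the replicate block 0 member probes were called, and Ddx5 had a log2 difference of 0.30 with a limma adjusted p of 0.772. Same-numbered arrays deviated from their group means with correlations of -0.23, 0.04 and -0.26 over 17843 probes, so the numbers were not taken as pairs. Between differently numbered arrays the correlations ran from -0.24 (anti-miR-335 replicate 3, control replicate 2) to 0.32 (anti-miR-335 replicate 3, control replicate 1). The source of these correlations across the groups was not tested. The count of called probes over the whole array, 0 as reported, was 474 with array weights (control replicate 1 weighted 0.366), 3 under a robust trend and 1 on quantile-normalized values. Further fits left out 1 array or 1 replicate pair, always the same-numbered arrays, and other pairs across the groups were not left out. In these fits the count of called probes over the whole array ran from 0 to 1571. It was 1100 without control replicate 1 and 1571 without both replicate 1 arrays. In the same fits 0 to 2 member probes were called (1 and 2 in those cases), 9 to 11 were positive, and their median ran from 0.066 to 0.35. Tnrc6a ran from -0.050 to 0.11, the dim Dgcr8 probe from -0.089 to 0.64 and the brighter Ago2 probe from -0.27 to 0.0005. Among partners, Smad1 ran from 0.037 to 0.40, Tsn from 0.016 to 0.25, Trim32 from 0.087 to 0.35 and Btg1 from -0.40 to -0.13. Edc3 passed without control replicate 1 and Hsp90aa1 without both replicate 1 arrays. The cause was not tested. The mean of a gene's probes called 0 members, and the brightest probe per gene gave a median of 0.18. Signal over background limits 1 probe each of Dgcr8, Xpo5 and Ago2.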

Other observations

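Dis3l2, an exoribonuclease that degrades uridylated let-7 precursors, was read by 3 probes that differed in direction. Probe GE136895 lay at 3.07, 3.60 and 3.15 in anti-miR-335 neurospheres, against 2.75, 2.52 and 2.24 in control neurospheres (log2 difference 0.39 ± 0.14 SE). Probe GE124605 lay at 0.732, 0.799 and 0.870 in anti-miR-335 neurospheres, against 0.864, 0.969 and 1.46 in control neurospheres (-0.42 ± 0.24). Probe GE102215 differed by 0.14 ± 0.13. The RNA-binding proteins Lin28a and Lin28b, which block let-7 maturation in early neural precursors, differed by -0.03 ± 0.19 and -0.15 ± 0.16 (log2, SE) and were singled out after their values were seen.

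On the replicate 1 pair alone, with no replicate, Dicer1 differed by 0.27 (log2, anti-miR-335 over control) with the deposited values and by 0.18 on scanner spot means without background subtraction. Ddx5 differed by 0.03 and 0.00 and Xpo5 (GE39645) by -0.09 and -0.11 in the same order. The dim Ago2 probe moved from -0.51 with subtraction to -0.07 without it, and the dim Xpo5 probe from -0.74 to -0.13.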
